A study of Mus musculus with 3 samples.

Results

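Cohesin is the ring-shaped complex that holds sister chromatids together from replication until they separate. Its core has a pair of SMC ATPases, a kleisin that closes the ring, and a HEAT-repeat STAG subunit. In dividing somatic cells these places are filled by SMC1A and SMC3, by RAD21, and by STAG1 or STAG2. Germ cells in meiosis add their own versions: SMC1B in place of SMC1A, REC8 or RAD21L in place of RAD21, and STAG3 in place of STAG1 and STAG2. SMC3 serves both kinds of complex. The meiotic complexes build the chromosome axes on which homologous chromosomes pair, and REC8 keeps sister centromeres together until the second division. The set described here is the 9 genes of these core subunits, taken by gene symbol, and all 9 were measured among 19938 named genes.

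RNA came from cells labelled as spermatids, the haploid cells that meiosis produces, from testes of wild type BALB/c males aged 30 days. All 3 samples belong to this 1 group, numbered as replicates 1 to 3, and no control group was part of the data. The labels describe cut and homogenised tubules passed through a strainer, with no sorting step, and do not say whether the replicates came from separate mice. The p-values below measure no more than the spread between these samples, which may be technical. Levels are log2 values by Robust Multichip Average (RMA) from Affymetrix Mouse Gene ST arrays, and errors are SDs over the 3 arrays.

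Markers of several testis cell types were above the background level defined below. All 8 spermatid markers and all 6 spermatocyte markers were above background, with mean levels of 11.78 to 13.22 and of 10.12 to 12.92. Whether the RNA of the spermatocyte markers came from spermatocytes or from spermatids was not tested. All 5 measured Leydig cell markers were above it as well (9.98 to 11.36), as were 3 of 7 Sertoli cell, 3 of 6 peritubular, endothelial and stromal, and 3 of 5 blood and immune markers. Of 9 spermatogonium markers 2 were above background, and of 5 measured proliferation markers 4, with Pcna at 11.86 highest. Over all named genes 36.6% were above background, and counts near or below that share are not read as showing a cell type. The level of Top2a, the proliferation marker that was not called, is uncertain, because its probe sets disagreed: 1 was at 11.24, 11.18 and 11.50 in replicates 1, 2 and 3 and the other at 4.06, 4.15 and 4.49. The 6 markers of other tissues lay between 4.96 and 7.87, all below the background level. The part of each cell type in the cohesin levels was not tested, and in such a bulk sample fewer cells of a type and less RNA per cell cannot be told apart.

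Background was set at 7.98, the 95th percentile of the mean levels of 211 vomeronasal receptor and hair keratin associated protein genes. A gene was called above it by limma's one-sided test over all named genes with Benjamini-Hochberg adjustment at 0.05. Of the 9 cohesin genes 8 were called: 3 of the 4 meiotic subunits, all 4 of their mitotic partners, and Smc3. Over all named genes the share called was 36.6%, 7295 of 19938, and the median level of all named genes was 7.45. Smc1a, Rad21, Stag1, Rec8 and Stag3 had exactly equal deposited values on all 3 arrays, as did 46.0% of named genes. For these 5 an SD of 0 means equal values, not an absence of error, and the call says only that the level lies above background, so no p-value is given for them. Of the 10765 named genes with unequal values, 4320 had 3 distinct values. In the rest some values were exactly equal, so a small SD or p-value may understate the error.

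**Figure D1:**
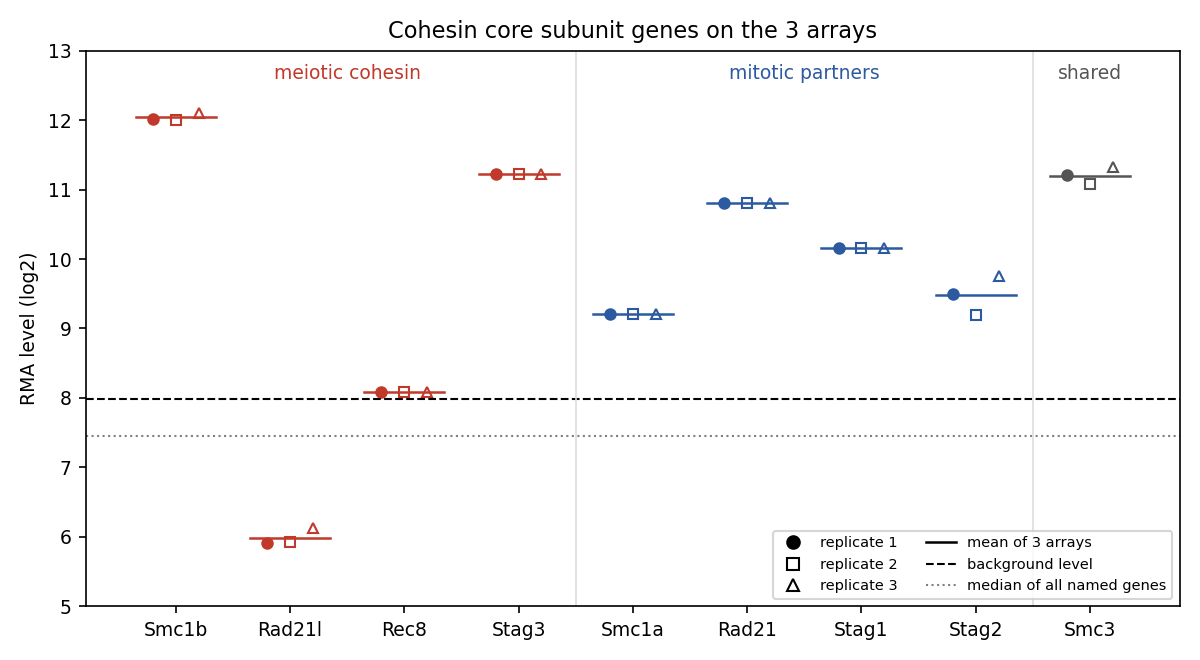
RMA level (log2, vertical axis) of the 9 cohesin core genes on each of the 3 arrays, with the meiotic genes left of their mitotic partners and Smc3 at the right; points are replicates, solid bars the mean, the dashed line the background level of 7.98 and the dotted line the median of all named genes, 7.45. Smc1b and Stag3 stand at 12.04 and 11.22, Rec8 just above the background line and Rad21l at 5.99 below it, while the mitotic partners lie between 9.21 and 10.80.

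At the SMC1 position the meiotic gene had the higher level. Smc1b was at 12.01, 12.00 and 12.10 in replicates 1, 2 and 3, a mean of 12.04 ± 0.05 that lay 4.06 above background (adjusted p = 4.12e-05, limma). This level exceeded that of 99.3% of named genes, the highest place of any cohesin core gene. The X-linked partner Smc1a was at 9.21 on every array, 1.23 above background and above 79.7% of named genes. The values of the pair did not overlap, though those of Smc1a were equal on every array. Probes of unlike genes bind with unlike strength, so this and the other orders between genes are orders of array level and not of RNA amount.

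At the kleisin position the order was the other way round. Rad21l, the kleisin best known from early meiotic prophase, was at 5.91, 5.93 and 6.13 in replicates 1, 2 and 3, a mean of 5.99 ± 0.12 that lay 2.00 below the background level. It was the only cohesin core gene not called, and 16.5% of named genes had a lower level. Both of its probe sets were low, one at 5.94, 5.94 and 6.20 and the other at 5.88, 5.91 and 6.06. The background genes had a median of 4.77, so a level under 7.98 does not show that Rad21l RNA was absent.

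Rec8, the kleisin that persists at centromeres through the first meiotic division, was at 8.08 on every array. That is 0.10 above the background level and above 63.8% of named genes. The call rests on this narrow margin: with the 99th percentile of the same background genes, 9.16, the level of Rec8 minus the background level was -1.08, and it was -0.28 when probe sets that name several genes were added. Rad21, the mitotic kleisin, was at 10.80 on every array, 2.82 above background and above 94.2% of named genes. Both meiotic kleisins were therefore lower on these arrays than Rad21. Rec8 and Rad21 each had equal values on every array, so their lack of overlap says nothing about spread.

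At the STAG position the meiotic gene was again the higher. Stag3, the STAG subunit that meiotic complexes use, was at 11.22 on every array, 3.24 above background and above 96.5% of named genes. Stag1 was at 10.16 on every array, 2.18 above background and above 89.3% of named genes. Stag2, X-linked like Smc1a, was at 9.50, 9.20 and 9.76 in replicates 1, 2 and 3, a mean of 9.49 ± 0.28 (adjusted p = 0.00936, limma). All 3 values of Stag2 were above the level of 7.98, but its call was lost with any replicate left out. Its mean still lay 1.37 to 1.69 above background in those fits, which rest on 2 arrays each. Such fits called fewer named genes, 6662, 7090 and 6807 without replicates 1, 2 and 3, against 7295 with all arrays. The adjusted p was 0.102 without replicate 1, 0.0563 without replicate 2 and 0.0855 without replicate 3, so that 3 of the 4 mitotic partners were called in each case.

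Smc3, the ATPase common to both kinds of complex, was at 11.21, 11.08 and 11.32 in replicates 1, 2 and 3. Its mean of 11.20 ± 0.12 lay 3.22 above background (adjusted p = 0.000334, limma) and above 96.4% of named genes. On these arrays it stood beside Stag3, with a mean that differed from that of Stag3 by less than the spread of Smc3.

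**Figure D2:**
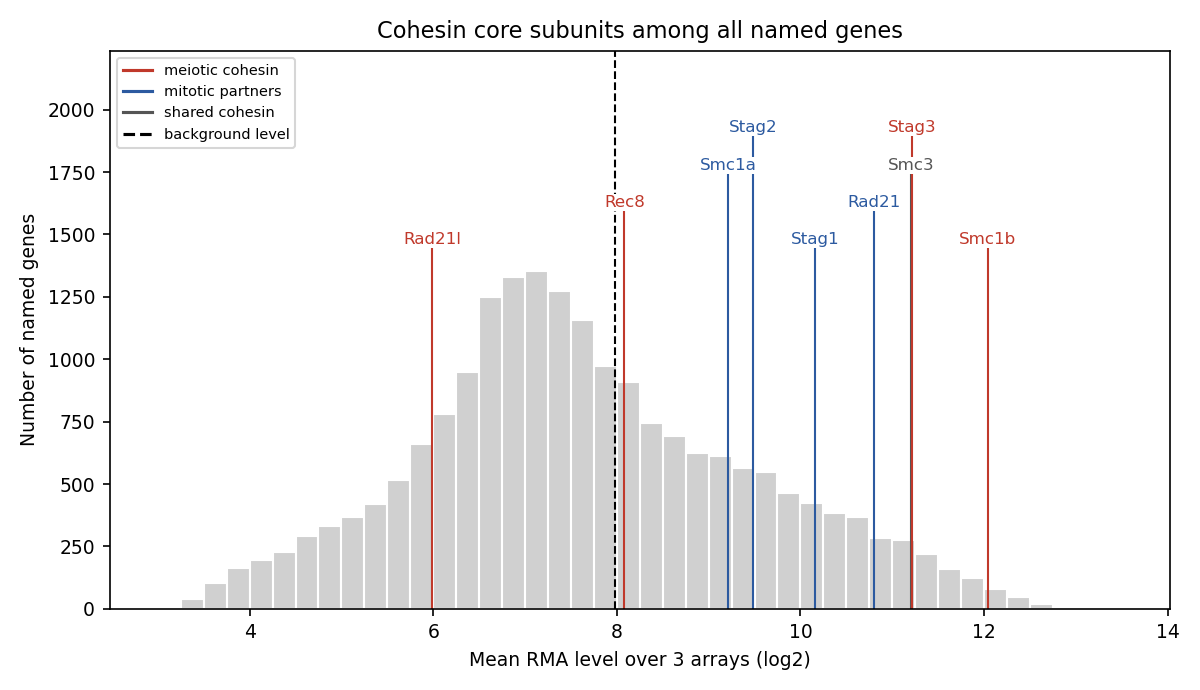
Histogram of the mean RMA level over 3 arrays (log2, horizontal axis) for all 19938 named genes (count on the vertical axis), with a labelled line for each cohesin core gene and a dashed line at the background level. Rad21l lies in the lower part of the distribution, above 16.5% of genes, Rec8 near the background line, and Smc1b at its upper end, above 99.3% of genes.

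As a set, the meiotic subunits were far more spread than their mitotic partners. The 4 meiotic means ran from 5.99 to 12.04 and the 4 mitotic means from 9.21 to 10.80, so every mitotic mean lay inside the meiotic range. The median level of the meiotic genes was 9.65 on each array, against 9.83, 9.68 and 9.96 for the mitotic partners in replicates 1, 2 and 3. The difference of medians, meiotic minus mitotic, was -0.17 ± 0.14 (n = 3) and carries no test. Rec8 and Stag3, which set the meiotic median, had equal values on every array, as did all mitotic partners but Stag2. That SD therefore reflects Stag2 alone and is no error of the set. The difference depended on the summary, with -0.58 between means, -0.51 with Smc3 counted among the mitotic partners, and -0.11 without replicate 3.

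The count of called genes depended on the background. At the 99th percentile level, which 19.3% of named genes passed, 2 of 4 meiotic genes (Smc1b and Stag3) and 3 of 4 mitotic partners were called. Stag2 was the partner that was not, with an adjusted p of 0.375 by limma, though its mean lay 0.32 above that level. Smc1a, with equal values on all arrays, was called at only 0.05 above it, so the calls do not rank these partners. When 1027 olfactory receptor genes set the level in the same way, at 7.18, 55.0% of named genes were called, and the counts were 3 of 4 and 4 of 4. Rad21l was not called in any of these settings.

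In meiotic prophase the X and Y chromosomes of male germ cells are silenced, and 2 of the mitotic partners are X-linked. Of 739 X-linked genes 27.6% were above background, against 37.0% of 19106 autosomal genes. Smc1a and Stag2 were both among the called X-linked genes, with levels above 86.8% and 89.9% of X-linked genes. Their means of 9.21 and 9.49 were the lowest of the 4 mitotic partners, below the autosomal Stag1 at 10.16 and Rad21 at 10.80. With 2 genes a side this order carries no test.

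Sequences before the annotated starts of the 4 meiotic genes are shown as a description. A link between these sequences and the levels of the genes was not tested. They are the 250 bases before the start in the RefSeq promoter table (assembly GRCm38.p6), 5′ to 3′ on the strand of the gene. Capitals mark the letters TCCCGC or their reverse complement, the core that E2F factors recognise, within TTCCCGCG where the longer run is present. They lie at chr15:85131958-85132207 (minus strand) for Smc1b, chr5:138280259-138280508 (plus) for Stag3, chr14:55617916-55618165 (plus) for Rec8 and chr2:151668534-151668783 (minus) for Rad21l.
Smc1b: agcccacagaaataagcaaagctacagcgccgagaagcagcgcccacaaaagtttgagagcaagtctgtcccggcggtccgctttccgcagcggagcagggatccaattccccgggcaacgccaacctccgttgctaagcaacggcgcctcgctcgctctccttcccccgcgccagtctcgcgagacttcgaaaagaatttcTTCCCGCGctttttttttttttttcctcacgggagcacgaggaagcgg
Stag3: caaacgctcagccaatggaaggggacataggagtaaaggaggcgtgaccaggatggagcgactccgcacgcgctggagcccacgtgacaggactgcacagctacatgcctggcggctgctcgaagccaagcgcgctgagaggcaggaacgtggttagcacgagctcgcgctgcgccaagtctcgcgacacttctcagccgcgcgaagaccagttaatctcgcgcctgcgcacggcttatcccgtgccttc
Rec8: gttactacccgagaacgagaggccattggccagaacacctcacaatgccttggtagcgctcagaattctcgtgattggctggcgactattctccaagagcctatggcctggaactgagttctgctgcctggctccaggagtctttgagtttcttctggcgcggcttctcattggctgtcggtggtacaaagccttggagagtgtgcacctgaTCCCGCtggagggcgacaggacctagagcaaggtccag
Rad21l: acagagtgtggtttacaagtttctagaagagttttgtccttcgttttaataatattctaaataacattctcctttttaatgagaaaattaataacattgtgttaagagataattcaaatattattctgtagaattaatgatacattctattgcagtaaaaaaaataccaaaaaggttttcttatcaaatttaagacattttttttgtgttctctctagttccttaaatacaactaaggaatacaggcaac

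The windows differed in base composition. The Smc1b window had a GC content of 58.0% and 25 CpG dinucleotides, and its ratio of observed to expected CpG of 1.21 exceeded that of 99.5% of the 32851 windows in the table. The Stag3 window held 26 CpG dinucleotides at a ratio of 1.05, above 96.4% of windows. The Rec8 window held 10 at a ratio of 0.51, above 60.3% of windows, and the median ratio of all windows was 0.37. The Rad21l window held 1 at a ratio of 0.24, above 36.0% of windows. Its GC content of 25.6% was lower than in all but 0.38% of windows. Mitotic and shared genes had 16 to 31 CpG dinucleotides: Smc1a 16, Smc3 26 and Stag1 31. Their ratios were 0.79, 1.01 and 0.98, above 80.6%, 94.6% and 93.1% of windows, so a high ratio was not particular to meiotic genes. The starts of the table are not always the outermost ones of the gene: that of Rad21l lay 2089 bases, that of Stag3 7995 bases, that of Rec8 164 bases and that of Stag1 45739 bases inside the gene's annotated span. Rad21 and Stag2 had no entry in the table.

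The letters TCCCGC, searched on both strands, occurred in the 250-base windows of Smc1b, Rec8, Stag1 and Smc3, 4 of the 7 members with a window, and in 16.9% of all windows. These letters hold a CpG. The windows of Smc1b, Rec8, Stag1 and Smc3 held 25, 10, 31 and 26 CpG dinucleotides, against a median of 6 over all windows. No share given here was matched for CpG content. The longer run TTCCCGCG contains the shorter one and was chosen after the sequences had been read. It was held by 0.83% of all windows, among them Smc1b, where it spans bases 48 to 41 before the start, and Stag1, where it spans bases 16 to 9. With 50 bases after the start included, a window that held the run in 1.01% of cases, it also occurred in Stag3, from 3 bases before the start to 5 after it, and in Smc1a, at bases 39 to 46 after it. It was thus present in meiotic and mitotic members alike. E2F6, a repressor of the E2F family, is known to act on Smc1b and Stag3 in somatic cells. The letters CNCCTCAG, the motif of the meiotic initiator STRA8, were not in the 250-base window of any of the 7 members and were in 6.42% of all windows. Such matches describe letters and not binding.

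Genes that load, release and cut cohesin were mostly above background, with 13 of 18 called against 36.6% of all named genes and a median level of 8.88 against 7.45. At the 99th percentile level 7 of the 18 were called, against 19.3% of all named genes. The loader gene Nipbl was at 11.97, 11.90 and 12.09 in replicates 1, 2 and 3, above 99.2% of named genes, and its partner Mau2 was at 8.69 ± 0.01. The acetyltransferases that lock cohesin on chromatin, Esco1 and Esco2, were at 8.59 ± 0.14 and 8.58 ± 0.01. Mau2 and Esco2 each had exactly equal values on 2 of the 3 arrays, so their SDs of 0.01 may understate the error. The call of Esco1 was lost with any replicate left out, with adjusted p of 0.126, 0.062 and 0.107 by limma without replicates 1, 2 and 3. Hdac8, the X-linked deacetylase that recycles SMC3, was at 6.66 on every array and not called. The loader therefore stood at the upper end of the list and the deacetylase near its lower end.

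The release factor gene Wapl was at 10.94 ± 0.11, and Pds5a and Pds5b, whose products act with WAPL, were at 10.38 ± 0.09 and 9.55 ± 0.12. Cdca5, the gene of the WAPL antagonist sororin, was at 9.20 on every array. All 4 of these were called.

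Protectors of centromeric cohesin differed. Sgo2a, the shugoshin that shields REC8 in meiosis, was at 9.82, 9.70 and 9.95 in replicates 1, 2 and 3 (adjusted p = 0.00112, limma), while Sgo1, the shugoshin of mitosis, was at 6.56 on every array and not called. Meikin, a meiotic kinetochore gene that works with shugoshin, was at 9.53 ± 0.10. Securin, encoded by Pttg1, was at 10.71 on every array, and the separase gene Espl1, whose product cleaves kleisins, was at 8.20, which is 0.22 above the background level. As with Rec8, the call of Espl1 was lost at the 99th percentile level and with probe sets of several genes added.

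The remaining regulators were a clamp loader pair and 2 boundary factors. Dscc1 was at 8.07 ± 0.09 and Chtf18 at 7.23 ± 0.05, neither called. Ctcfl, a Ctcf paralog of the testis, had a level of 6.65 on every array and was not called. Ctcf, the gene of the zinc finger protein at which cohesin stalls, was at 9.08 on every array and called.

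**Figure D3:**
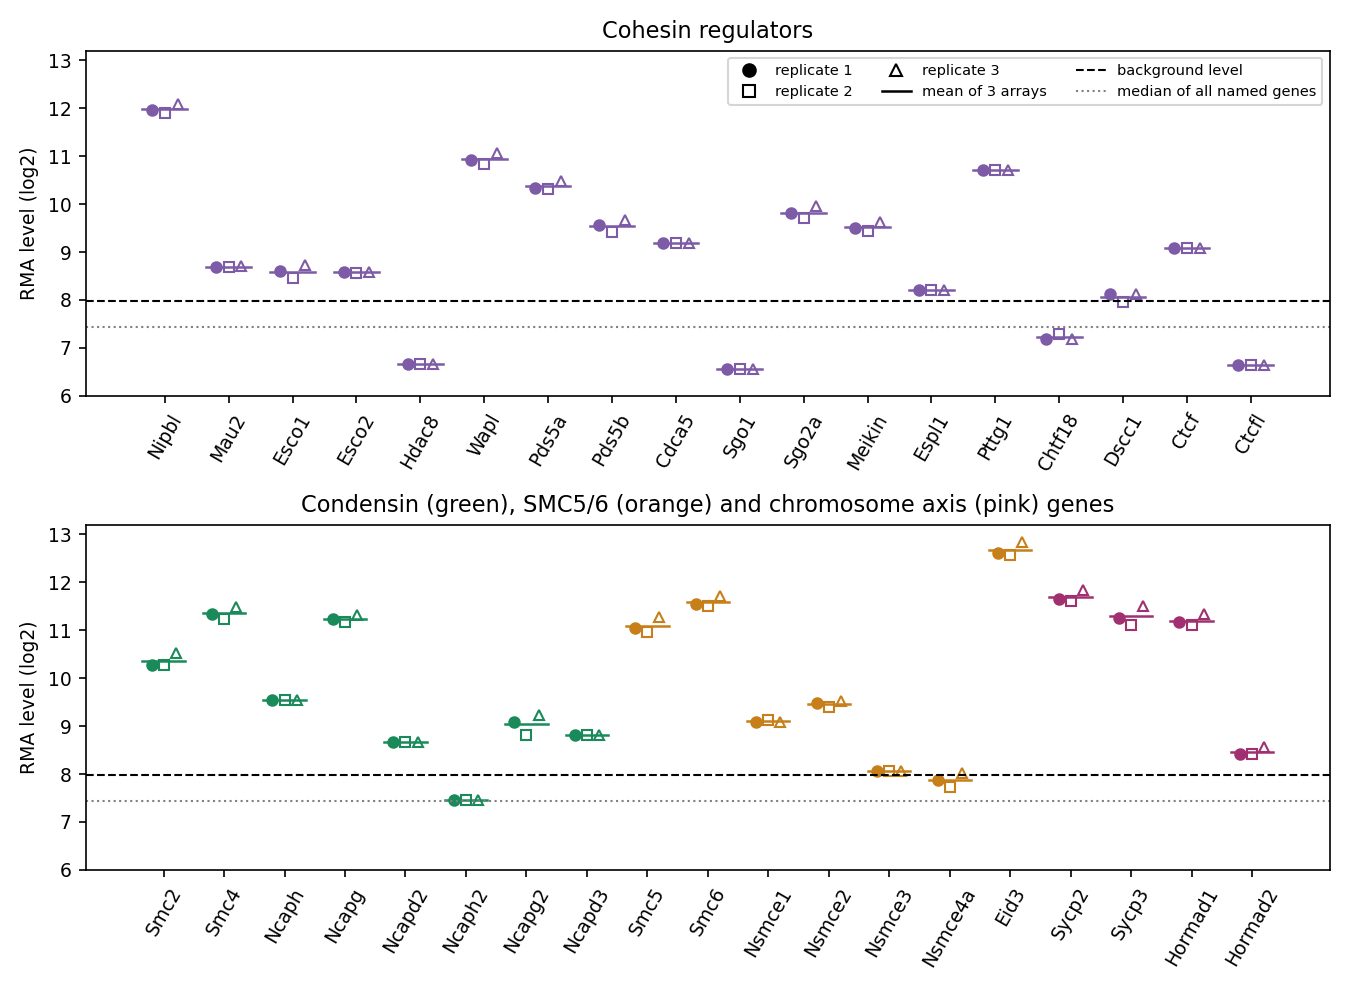
RMA level (log2, vertical axis) on each array for 18 cohesin regulators (upper panel) and for condensin, SMC5/6 and chromosome axis genes (lower panel); points are replicates, solid bars means, the dashed line the background level of 7.98 and the dotted line the median of all named genes. Nipbl and Eid3 stand highest in their panels at 11.99 and 12.67, and Sgo1, Ctcfl, Hdac8 and Chtf18 lie below both lines.

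The other SMC complexes were measured as well. Over all named genes 36.6% were called, or 19.3% at the 99th percentile level, and the median level was 7.45. Condensin, which compacts chromosomes, had 7 of 8 genes called, or 4 at the 99th percentile level, with a median of 9.30. Its ATPase genes Smc4 and Smc2 were at 11.35 ± 0.12 and 10.36 ± 0.15, and Ncapg of condensin I was at 11.24 ± 0.07. The condensin I genes Ncaph and Ncapd2 were at 9.54 and 8.66, and the condensin II genes Ncapg2 and Ncapd3 at 9.05 and 8.81. Ncaph2, the kleisin of condensin II, was at 7.46 on every array and not called. The call of Ncapg2 was lost without replicate 1 (adjusted p = 0.107) or without replicate 3 (adjusted p = 0.106, limma).

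SMC5/6, a complex of DNA repair, had 6 of 7 genes called, against 36.6% of all named genes, and a median of 9.46. Smc6 was at 11.59 ± 0.11 and Smc5 at 11.09 ± 0.17. Eid3, a paralog of Nsmce4a that is expressed mainly in testis, was at 12.61, 12.58 and 12.84 in replicates 1, 2 and 3, above 99.9% of named genes. Nsmce4a was at 7.88, 7.73 and 8.03 and was not called. In this complex, unlike cohesin, the testis version of the kleisin was the higher of the pair, with no overlap. Nsmce2 and Nsmce1 were at 9.46 and 9.10, and Nsmce3 at 8.06, which is 0.08 above the background level. The call of Nsmce3 was lost at the 99th percentile level, where 4 of the 7 genes were called (Nsmce1 was the other one lost), and with probe sets of several genes added, where 5 were called.

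Chromosome axis genes, whose products lie on meiotic cohesin, were all 4 called, against 36.6% of all named genes. Sycp2 was at 11.70 ± 0.11, Sycp3 at 11.29 ± 0.19, Hormad1 at 11.20 ± 0.12 and Hormad2 at 8.47 ± 0.08. The first 3 of these means stood near those of Stag3 and Smc3 and below that of Smc1b. The probe sets of Hormad1 disagreed in level, with 1 at 11.71, 11.71 and 11.79 and the other at 10.63, 10.49 and 10.86. The call of Hormad2 was lost without replicate 1 (adjusted p = 0.0749) or without replicate 2 (adjusted p = 0.0984, limma), and also at the 99th percentile level and with probe sets of several genes added.

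Of the 4 cohesin genes that varied between arrays, 3 did so in an order that most called genes with 3 distinct values shared. Smc1b, Smc3, Stag2 and Rad21l had unequal values, and replicate 3 was the highest array for all 4. In Smc1b, Smc3 and Stag2 replicate 2 was the lowest, and in Rad21l replicate 1. All 4 had 3 distinct values. The order of replicate 3 above 1 above 2 held for 1842 of 2208 called genes with 3 distinct values. Over all named genes it held for 2248 of 4320. Stag2 had an SD larger than that of 98.7% of the 10765 named genes with unequal values, and Smc1b had an SD near their middle, larger than 49.9%. Replicate 3 was also highest for 8 of 11 regulators, 4 of 5 condensin genes, 5 of 6 SMC5/6 genes and all 4 axis genes with unequal values. Among all called genes with unequal values this held for 62.0%, and among all named genes with unequal values for 33.9%. Replicate 3 was highest for 5 of 6 spermatocyte markers, all 8 spermatid markers and 1 of 4 Leydig markers with unequal values. The counts were 0 of 4 for spermatogonium, 3 of 4 for proliferation and 1 of 4 for blood and immune markers. They were 0 of 2 for Sertoli cell, 0 of 4 for peritubular, endothelial and stromal, and 0 of 3 for other tissue markers. The part of cell composition in this spread was not tested.

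**Figure D4:**
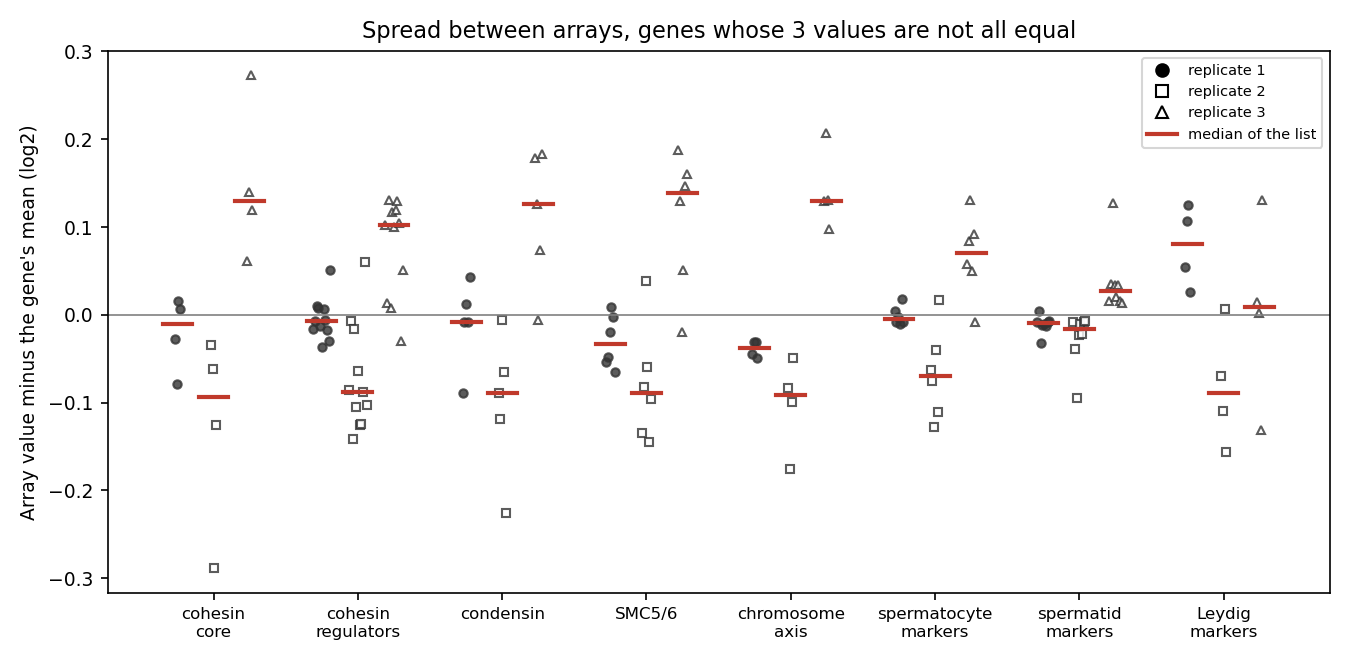
Value on each array minus the gene's mean over the 3 arrays (log2, vertical axis) for genes with unequal values in each list; symbols are replicates and red bars the median of a list. For cohesin core genes the medians are -0.01, -0.09 and 0.13 in replicates 1, 2 and 3, and for spermatocyte markers they are -0.01, -0.07 and 0.07.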

How the data were processed

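The authors deposited log2 probe set levels for 3 arrays. Per the series' design text, they were made by RMA in Affymetrix Power Tools with annotation based on mm9; the sources used here give no software version. Per the labels' protocols, 200 ng of total RNA was labelled for each array. Scanner files were not used here, so detection above local background is unknown, and the number of arrays limits the precision. Column medians were 7.17, 7.20 and 7.17. The platform annotation named 1 gene for 21789 of 35556 probe sets and several genes for 1621, and no member was on a probe set of several genes. Symbols were updated by Entrez identifier (21698 matched) to GRCm38.p6. Coordinates on that assembly are given for the RefSeq promoter windows alone, and none for probe sets or genes, because the probe set annotation the authors used came from mm9. A gene's level is the median of its own probe sets.

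The calls used limma 3.58.1 in R 4.3.3, an intercept model with empirical Bayes variances over all 19938 named genes, tested on simulated data. Tables and figures used Python 3.11.15. Members and gene lists were chosen with earlier results of these data known. Every core member is named, as may be every measured member of the regulator, condensin, SMC5/6 and axis lists. Alternatives covered the background level and genes, the probe sets, scaling, the call rule, the variance prior and each replicate left out. No gene of like pattern was sought, because replicates of 1 group hold no pattern across conditions. Identity between member proteins was not analysed here.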

Additional observations from a re-analysis of the deposited data

How the results depend on the processing

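At the 99th percentile background 7 of 18 regulators and 4 of 8 condensin genes were called, against 13 and 7 at the 95th. The level of Rec8 minus the background was -1.08 there and -0.28 with probe sets of several genes added. The difference of medians, meiotic minus mitotic, was -0.51 with Smc3 among the mitotic partners and -0.58 between means, and ran from -0.24 to -0.11 with a replicate left out. Over those left-out fits the counts were 3 of 4 meiotic genes, 3 of 4 mitotic partners, 12 to 13 regulators, 6 to 7 condensin, 6 SMC5/6 and 3 to 4 axis genes. Dscc1, not called in the report, was called without replicate 2, but its remaining values were exactly equal, so no p-value is given for that call. It was also called with the olfactory receptor level (adjusted p = 0.00164, limma). The same held without the 4 vomeronasal receptor pseudogenes in the background (adjusted p = 0.0101, limma). That last alternative was chosen after seeing the data and put the level at 7.64, where 8701 named genes were called, against 7295. Of 74 values for counts and the difference of medians under the alternatives, 70 stayed within 1.5 times the reported count or 1 SD of the difference. Of 99 levels of single members under the alternatives, 93 kept their side of the level and their call. Much of this agreement was fixed beforehand. Members with equal values keep their level when a replicate is left out, and all members but Rad21l had a single probe set. The probe set and scaling alternatives left the difference of medians at -0.17. A fall from 3 to 2 meiotic genes counts as within 1.5 times.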
